A study of Mus musculus with 17 samples.

Results

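The HCN pacemaker channel genes Hcn2, Hcn3 and Hcn4 and Pex5l, the gene for their accessory subunit, were followed through cells and sections of the mouse anterior thalamic nuclei. They were chosen by name, as 4 of 52636 genes in the single-cell table and 4 of 28692 in the section table. All mice were wild type (WT) on the B6 background, with no treatment and no age stated. Cells were dissociated from microdissected acute slices, harvested by hand and sequenced well by well. Whole brain sections of 10 µm were read on Visium arrays, whose spots each collect RNA from a small patch of tissue that can hold several cells or parts of them. The measurements came from 1344 wells, of which 1216 had an animal number, and from 7827 spots.

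HCN channels open when a neuron is hyperpolarized and carry an inward cation current, Ih, that brings the membrane back toward threshold. Cyclic AMP binds the channels and eases their opening, so receptors that raise or lower cAMP shift the current. In thalamic relay neurons Ih works with low-threshold calcium channels and potassium channels to set the resting potential and rhythmic burst firing. Pex5l encodes TRIP8b, a protein that binds HCN channels, steers them to or from the membrane and weakens the effect of cAMP on them.

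The wells of 3 animals gave 904 cells with at least 1000 genes, namely 103, 328 and 473 from animals 1, 2 and 3. Their total counts were 6264778, 3221635 and 29648927, and a cell of animal 2 had a median of 8845 counts against 49798 and 50474 in animals 1 and 3. Clustering without the 4 genes set apart 877 neurons and 27 cells marked by oligodendrocyte genes. In the marked cells of animals 2 and 3, all 8 oligodendrocyte markers summed to between 52043 and 61481 CPM (counts per 1000000 counts). Animal 1 gave only 2 such cells, too few for a sum. In the neuron clusters the same 8 markers summed to between 8.04 and 394 CPM, and the 11 markers of thalamic glutamatergic neurons to between 1898 and 5104 CPM. Sections 2 and 6 were labelled posterior and section 5 anterior. They held 2794, 2493 and 2540 spots and 26032042, 18582120 and 13788407 counts. Of the 12 groups of spots, numbered by size, region 7 (652 spots, led by Gbx2, Shox2 and Lhx9) carried the thalamic markers at 2713 to 2937 CPM, against at most 556 CPM in any other region, and is called the thalamic region.

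All 4 genes were detected in neurons of every animal. Hcn2 (ENSMUSG00000020331, chromosome 10, 79716634 to 79736108 in GRCm38.p6), the cAMP-sensitive channel found widely in the brain, stood at 23.2, 15.1 and 22.0 CPM in animals 1, 2 and 3. Its mean was 20.1 ± 4.36 CPM (SD, n = 3 animals), and animal 2 was the low one. Hcn3 (ENSMUSG00000028051, chromosome 3, 89146775 to 89160284), a channel known for a weak response to cAMP, stood at 20.1, 20.0 and 21.9 CPM (20.6 ± 1.08), so the animals were close together. Hcn4 (ENSMUSG00000032338, chromosome 9, 58822949 to 58863175), the slow, strongly cAMP-sensitive channel of the sinus node and of thalamic relay cells, stood at 20.2, 47.6 and 37.2 CPM (35.0 ± 13.8). Here animal 2 was the highest and animal 1 the lowest. Pex5l (ENSMUSG00000027674, chromosome 3, 32947926 to 33143302) stood at 40.8, 76.0 and 51.3 CPM (56.0 ± 18.0), with the same order of animals as Hcn4. The Pex5l intervals of animals 1 and 2 were 35.9 to 46.2 and 66.6 to 86.3 CPM (exact Poisson, 95%), which here and below cover counting error only. Single plates spanned that gap, at 37.0 and 73.8 CPM in animal 1 and 36.8 to 98.6 CPM in the 4 plates of animal 2. Each animal was a separate set of plates and animal 2 had the fewest counts per cell, so animal, plate and depth cannot be told apart.

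These levels rested on few counts in a minority of cells. Hcn2 gave 819 counts in 301 of 877 neurons, Hcn3 812 in 141, Hcn4 1339 in 250 and Pex5l 1956 in 360. A neuron in which Hcn3 or Hcn4 was counted had a median of 3 counts. In animal 1, 5 of 101 neurons held 91.0% of the Hcn3 counts and 72.4% of the Hcn4 counts, and a single neuron held 52 of the 122 Hcn3 counts. Across all animals the 5 highest neurons held 8.06% of the Hcn2 counts and 22.0% of those of Hcn3. Of the wells without a cell, 56 with spike-in RNA and 16 blank ones held 1 count of the 4 genes in all. They held only 79309 and 323 counts, so the 1 count, of Hcn4 in the spike-in wells, was 12.6 CPM. These wells are too shallow to show a low background. A set of 56 wells labelled qRNA held at most 1 count of each gene among 4367024.

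At equal depth most neurons held no count of any of the 3 channel genes. With each cell thinned to 5000 counts, which left out 0, 59 and 2 neurons of animals 1, 2 and 3, Hcn2 was counted in 7.63% ± 1.63 of neurons (SD, n = 3 animals), against 35.5% unthinned. Hcn3 was counted in 6.24% ± 2.01 (15.1% unthinned) and Hcn4 in 11.4% ± 6.64 (24.8%). For Pex5l the share was 18.7% ± 5.43, against 41.3% unthinned. Without thinning, 43.6%, 59.6% and 30.3% of neurons in animals 1, 2 and 3 had a count of none of the 3 channel genes. Another 17.8%, 5.36% and 21.4% had counts of exactly 2 of them, and 1.98%, 0.631% and 5.01% had all 3. The share with several channel genes was lowest in the animal read least deeply. After thinning, 0.990%, 3.88% and 3.06% of neurons had exactly 2. A neuron with no count of a channel gene cannot be called free of it at this depth.

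Pex5l was at a higher level in the oligodendrocyte marker cells than in neurons in each animal. These cells also carried the 11 thalamic neuron markers, at 1637 to 1903 CPM in animals 2 and 3, close to the 1898 to 2371 CPM of neuron cluster 4, and the part of neuronal RNA in their levels was not tested. Its level there was 149, 165 and 181 CPM in animals 1, 2 and 3, with intervals of 98.9 to 215, 99.6 to 258 and 156 to 211, which cover counting error only and not the spread between cells. The cells were 2, 11 and 14 with 28, 19 and 174 counts, and no test across animals was run because animal 1 gave only 2 of them. At 5000 counts per cell, Pex5l was counted in 50.8% ± 8.98 of these cells in animals 2 and 3. Hcn2 in these cells was at 51.1 CPM in animal 3 (49 counts, 37.8 to 67.6), above the 20.3 to 23.8 of that animal's neurons, while animals 1 and 2 gave only 4 counts and 1 count. Hcn3 gave 0, 1 and 1 counts there, so in animal 3 it was at 1.04 CPM (0.0264 to 5.81) against 21.9 in neurons. Hcn4 was at 58.4, 0 and 19.8 CPM from 11, 0 and 19 counts, with no common order. Setting aside the 2, 2 and 16 neurons with 3 or more oligodendrocyte markers left Pex5l in neurons at 37.6, 76.3 and 51.7 CPM.

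**Figure D1:**
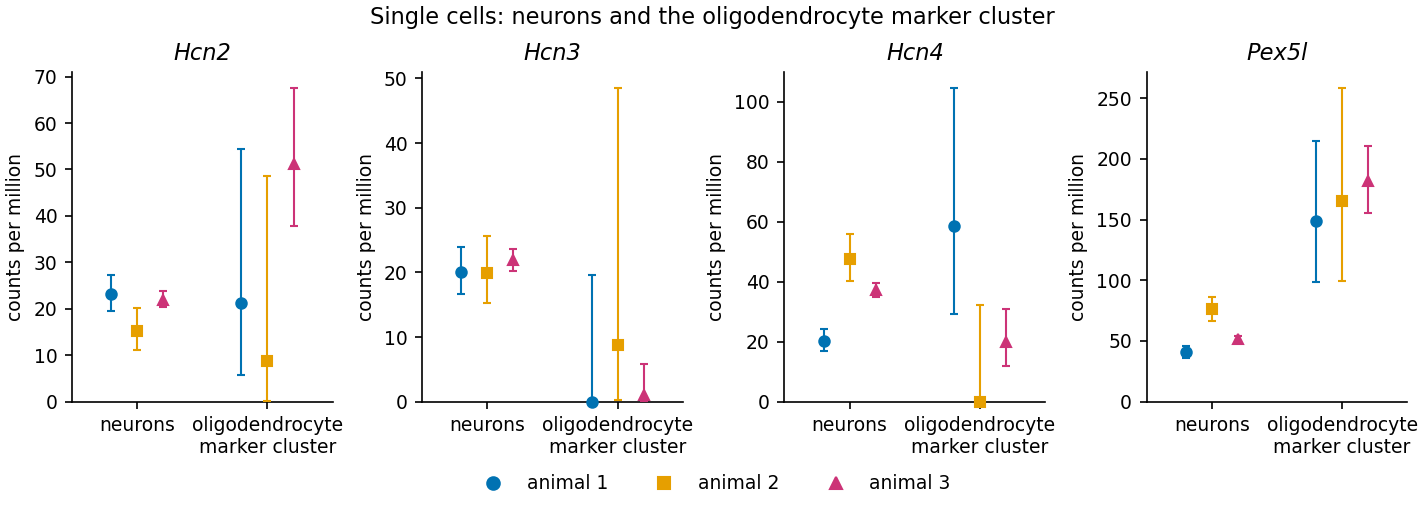
Level of each gene (CPM, linear axes starting at 0) in neurons and in the oligodendrocyte marker cells of animals 1, 2 and 3, with exact Poisson 95% intervals as bars. The Pex5l points of the oligodendrocyte marker cells, at 149 to 181 CPM, lie above every neuron point, whose highest is 76.0 CPM, and Hcn3 lies at 0 to 8.71 CPM in those cells.

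Between groups of neurons no difference in the 4 genes was found. The neurons fell into cluster 1 (413 cells, led by Npsr1, Grp and Mgst2), cluster 2 (246, Aldh3b2, Kcna5 and Adgrg6), cluster 3 (150, Penk, Sst and Rsph9), cluster 4 (41, C1ql2, Acta2 and Chrm1) and cluster 6 (27 cells of animals 2 and 3, Ccin, Lhx6 and Ctsc). Cluster 5 was the oligodendrocyte marker group. Counts were summed per animal and cluster and compared in edgeR's quasi-likelihood test with the animal as a block, Benjamini-Hochberg adjustment over 12368 genes and a threshold of 0.05. Of 20 tests of a member in a cluster against the mean of the others, 0 passed, and 0 had an unadjusted p under 0.05 (adjusted p 0.34 to 1). In the same 5 comparisons 0.38%, 3.04%, 2.36%, 12% and 1.85% of all genes passed for clusters 1, 2, 3, 4 and 6. Of 40 tests in the 10 pairs of clusters, 0 passed and 0 had an unadjusted p under 0.05 (adjusted p 0.26 to 0.997), where 3.6% of all gene tests passed (0.202% to 12.7% in single pairs). DESeq2 also called 0 and 0. In simulated sums with cluster 1 changed, differences of 4-fold were called in 30.6% of genes and of 2-fold in 1.04%. The dispersion there was set at 0.3 and not estimated from the data, so these rates are not those of the 4 genes. Between neighbours in the order of levels, the log2 fold changes of the 4 genes had an SE of 0.53 to 1.18. The counts of 0 therefore do not show equal levels.

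The levels spread as widely over animals as over clusters, but some sums held so few counts that counting error is part of this spread. In cluster 1 the Hcn2 level was 27.5, 17.0 and 25.8 CPM in the 3 animals in turn, while cluster 2 gave 12.4, 21.1 and 18.5. In cluster 3 it was at 13.8, 7.45 and 13.2, the lowest mean of the 5 clusters (11.5 ± 3.51) and below the mean of the others in 3 of 3 animals (adjusted p = 0.50, edgeR). In cluster 4 it ran from 6.20 CPM in animal 2 to 39.9 in animal 1, which covered every other cluster's mean. The first value was 1 count in 9 cells (0.157 to 34.5) and the second 25 counts in 5 cells (25.8 to 58.9).

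The highest Hcn3 mean was that of cluster 4, whose 3 animals gave 49.5, 31.0 and 17.2 CPM. Next came cluster 2 with 9.65, 33.4 and 33.8, and cluster 1 with 24.0, 14.6 and 18.4. Cluster 3 gave 2.30, 20.8 and 17.8, with animal 1 below the others on 2 counts in 13 cells (0.278 to 8.29). Cluster 6 gave 0 and 17.2 in animals 2 and 3, from 0 and 8 counts, and the 0 still allows up to 59.4 CPM. The order of the clusters differed between animals.

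Hcn4 was highest on average in cluster 2, at 26.9, 40.5 and 52.9 CPM, and close to it in cluster 1, at 26.5, 50.5 and 33.6. In cluster 3 it ranged from 0 in animal 1 to 58.1 in animal 2. Cluster 4 had the lowest mean, 14.5 ± 14.1 CPM from 1.60, 12.4 and 29.6, which rested on 1, 2 and 96 counts. It lay below the mean of the others in 3 of 3 animals (adjusted p = 0.34, edgeR). Pex5l had means of 52.7 to 60.3 CPM in clusters 1 to 4 and 84.7 ± 16.7 in cluster 6 (n = 2 animals, 6 and 34 counts). Within cluster 1 alone Pex5l ran from 32.9 in animal 1 to 79.1 in animal 3, so the animals of 1 cluster differed by more than the means of the 4 clusters. No neighbours in the order of levels differed for any of the 4 genes, with adjusted p from 0.73 to 0.997 in edgeR.

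**Figure D2:**
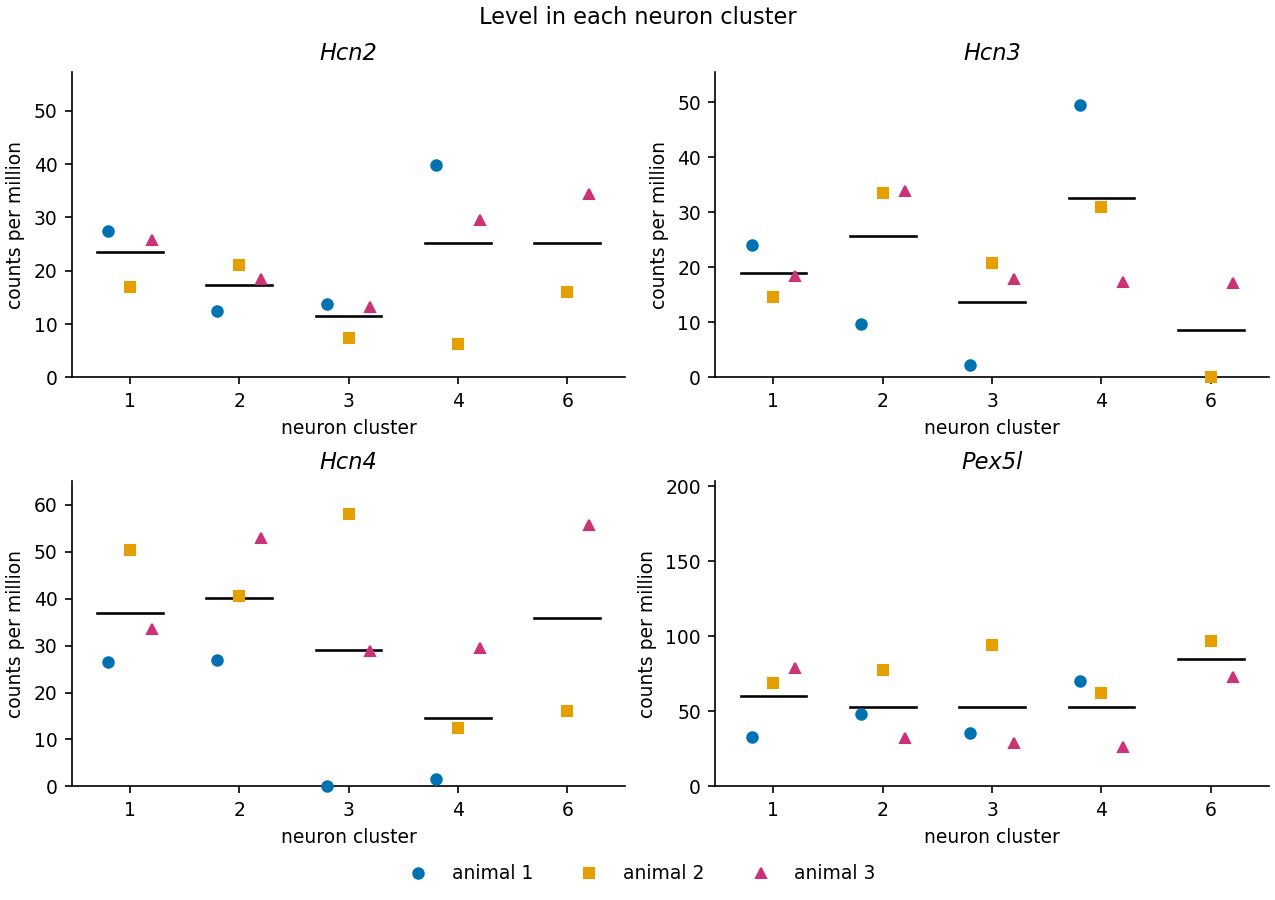
Level of each gene (CPM, linear axes) in neuron clusters 1, 2, 3, 4 and 6, a point per animal and a bar at the mean. Most clusters overlap, as for Pex5l, where cluster 1 runs from 32.9 to 79.1 CPM and cluster 4 from 26.5 to 70.2. Hcn2 in cluster 3 (7.45 to 13.8) lies below clusters 1 and 6, and Pex5l in cluster 6 (72.9 to 96.5) lies above cluster 4. The cluster 6 points of animal 2 rest on 1 Hcn2 count and 6 Pex5l counts.

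Some genes that act around the channels did differ between the same clusters. Cacna1g, which encodes the low-threshold calcium channel that turns a rebound from hyperpolarization into a burst, was at 492 ± 125 CPM in cluster 2 against 194 in the others (log2 fold change 1.48 ± 0.21 SE, adjusted p = 0.000399). In cluster 4 it was at 60.8 ± 14.6 against 312 CPM (-2.18 ± 0.27, adjusted p = 2.54e-05, edgeR). Of 13 tested channels that act with Ih in burst firing and rest, 1 was higher and 6 lower in cluster 4, with a median log2 fold change of -0.99 against -0.12 over all genes, of which 12% passed there. Cluster 4 also had the lowest thalamic markers of the neuron clusters (1898 to 2371 CPM against 2738 to 5104), and its 5 pericyte and smooth muscle markers, which include its leading gene Acta2, summed to 3.19, 6.20 and 1016 CPM in animals 1, 2 and 3. Their part in its differences was not tested. The lower ones included Kcnj3, a potassium channel opened by G proteins, at 32.9 against 147 CPM. Among 36 genes of cAMP synthesis, breakdown and targets, 3 were higher and 3 lower there, a share near the 12% of all genes. The adenylyl cyclase gene Adcy2 was at 260 ± 104 against 23.9 CPM (4.67 ± 0.56, adjusted p = 1.9e-05), and Rapgef3, a cAMP-gated exchange factor, gave no count in cluster 4 and 38.0 CPM in the others. Rapgef3 was higher in cluster 2, at 61.7 ± 6.23 against 21.2 CPM (3.57 ± 0.69, adjusted p = 0.00778).

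In cluster 3 the phosphodiesterase genes Pde4b (163 ± 45.5 against 48.4 CPM) and Pde1a (30.7 ± 21.2 against 0.973 CPM) were higher, as was Prkar2b, a regulatory subunit of protein kinase A. These were all 3 of the 36 cAMP genes that passed there, where 2.36% of all genes passed. The low-count filter may have admitted Pde1a through cluster 3, so its call is no support. Among 17 tested receptors that act through cAMP, Npsr1 alone was higher in cluster 1, where it also led the cluster. There 0 were lower, and 0.38% of all genes passed. Npsr1, at 36.4 CPM in cluster 1 against 2.46 in the others, may also have passed the low-count filter through that cluster. Its call is therefore no support. In cluster 6, Popdc3, which encodes a cAMP-binding membrane protein, was at 34.3 against 1.68 CPM, where 1.85% of all genes passed. The sums of that cluster held 62152 and 466092 counts in animals 2 and 3, so 1 count in animal 2 is 16.1 CPM. The low-count filter may have admitted Popdc3 through cluster 6, so its call there is no support. Of the 16 tested partner proteins of HCN channels, 1 was higher and 3 lower in cluster 4, where 12% of all genes passed. Camk2a was at 7.62 and 135 CPM there and in the others, and the clathrin adaptor gene Ap2m1 at 1034 and 531.

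In the sections the 4 genes took different patterns over the regions. Hcn2 gave 6732 counts in 4164 of 7827 spots, Hcn3 757 in 690, Hcn4 24 in 23 and Pex5l 5063 in 3359. Fewer cells of a type in a spot and less RNA per cell cannot be told apart in such data. The 3 sections served as replicates. The labels name no animals for them, so p-values measure the spread between these sections only. Fold changes compare the thalamic region with the mean of the log levels of the other regions, over 13798 genes, of which 27.3% passed, 16.5% as higher and 10.7% as lower in the thalamic region. Hcn2, Hcn3 and Pex5l passed in that comparison. Hcn4 passed as well, but its highest sums were themselves thalamic, 7.14 CPM in section 5 and 3.54 CPM in section 6. The filter on low counts may have admitted it through them, so its pass is no support.

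Hcn2 was at 124, 175 and 202 CPM in the thalamic region of sections 2, 5 and 6. Its mean of 167 ± 39.8 CPM stood against 123 ± 22.9 over the other regions, and it was higher in 3 of 3 sections (log2 fold change 0.56 ± 0.08, adjusted p = 6.55e-08, edgeR). Hcn3 was at 15.8, 20.4 and 24.2 CPM, from 32, 20 and 41 counts, against 12.9 ± 0.26 CPM elsewhere. It too was higher in 3 of 3 sections (0.84 ± 0.20, adjusted p = 0.000717). Pex5l went the other way. It was at 52.9, 52.0 and 60.7 CPM, a mean of 55.2 ± 4.81 against 85.3 ± 3.70, and lower in 3 of 3 sections (-0.43 ± 0.11, adjusted p = 0.00139).

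Hcn4, counted in 28.5% of the neurons, was counted in 2.30% of the spots of the thalamic region and in 0.294% of all spots. Its 24 counts lay as 15 in the thalamic region, 5 in region 6 and 1 each in regions 1, 2, 3 and 9. The thalamic counts were 2, 7 and 6 in sections 2, 5 and 6, or 0.988, 7.14 and 3.54 CPM with intervals of 0.120 to 3.57, 2.87 to 14.7 and 1.30 to 7.70. Hcn4 passed the threshold there, but may have entered the fit through these thalamic counts. Its pass is therefore no support, and with so few counts no fold change is given. Hcn4 fell below the filter on low counts when a section, or the region found in only 1 section's sums, was left out. Single-cell and section tables were made by different methods, so the 35.0 CPM in neurons and the levels in spots are given side by side without a test.

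Against single regions, where 31.2% of all gene tests passed (14% to 51.7% per region), the thalamic region did not have the highest mean of Hcn2, Hcn3 or Pex5l. Hcn2 was higher there than in 8 of 11 other regions, lower than in region 10 and not called against regions 3 and 5. Region 10 (led by Cckar, Six3 and Fign, with 8 GABA neuron markers at 7641 to 7827 CPM) had the highest Hcn2 level, at 199, 281 and 278 CPM in sections 2, 5 and 6. It was higher there than in the mean of the others (252.6 ± 46.8 CPM, 1.24 ± 0.11, adjusted p = 5.8e-15, where 18.5% of all genes passed). Region 3 (Gbx1, Lhx8 and Ngfr) followed at 162, 227 and 209 CPM and differed from region 10 (adjusted p = 0.0357) but not from the thalamic region (adjusted p = 0.0772). Region 5 (Cxcl5, Sln and Thbs4) stood at 113, 196 and 169 CPM and was not called against the thalamic region (difference of 0.0042 ± 0.12 SE on the log2 scale, adjusted p = 0.99). The next gap, between region 5 and region 2 at 117 ± 33.0 CPM, passed the threshold (adjusted p = 0.000814). The lowest level was in region 11 (Prr32, Defb11 and Frmpd1os, with 5 choroid plexus markers at 98435 to 142208 CPM), at 36.0, 32.4 and 57.6 CPM. Section 2 was the lowest of the 3 in each of the 11 regions with sums in all sections except region 11.

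Hcn3 was highest in region 3, at 27.4, 34.9 and 24.5 CPM, and in region 9 (Otp, Oxt and Avp), at 24.2, 29.8 and 29.5 CPM. Both passed against the mean of the others (1.41 ± 0.17, adjusted p = 1.9e-10, with 26.1% of all genes called, and 1.31 ± 0.20, adjusted p = 1.4e-07, with 36.7%). Neither differed from the next in order, region 3 from region 9 (adjusted p = 0.79) or region 9 from the thalamic region (adjusted p = 0.19). The thalamic region was higher than 6 of 11 other regions in Hcn3, lower than 0 and not called against regions 3, 6, 9, 10 and 12. Region 11 was again the lowest, with 5.87, 2.49 and 0 CPM. In region 2 (Cd4, Sh3rf2 and Adora2a, with 8 striatal markers at 6946 to 7618 CPM) it was at 6.55, 5.87 and 6.32 CPM, below the mean of the others (adjusted p = 0.00328, with 39.5% of all genes called).

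Pex5l was highest in region 5, at 190, 192 and 221 CPM in sections 2, 5 and 6. That was 201 ± 17.5 against 71.2 ± 3.60 CPM in the other regions (1.71 ± 0.09, adjusted p = 1.67e-25, with 45.8% of all genes called), and it differed from the next region in order (adjusted p = 1.89e-10). Region 1 (Trbc2 and Gm11549) followed at 120, 104 and 113 CPM and region 4 (Ovol2, Adam33 and Gm11549) at 101, 106 and 105 CPM, which did not differ from each other (adjusted p = 0.56). Both passed against the mean of the others (adjusted p = 3.2e-13 and 8.3e-10, with 34.5% and 40.2% of all genes called). Region 9 was low at 39.8, 25.6 and 39.9 CPM (-1.16 ± 0.13) and region 11 lowest at 23.5, 24.9 and 25.8 CPM (-1.56 ± 0.18, with 53.3% of all genes called). The thalamic region was below 7 of 11 other regions, above regions 9 and 11, and not called against regions 6 and 12. So region 9 was among the highest for Hcn3 and among the lowest for Pex5l, and region 5 among the lowest for Hcn3 (2.83, 12.2 and 7.48 CPM) and the highest for Pex5l.

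**Figure D3:**
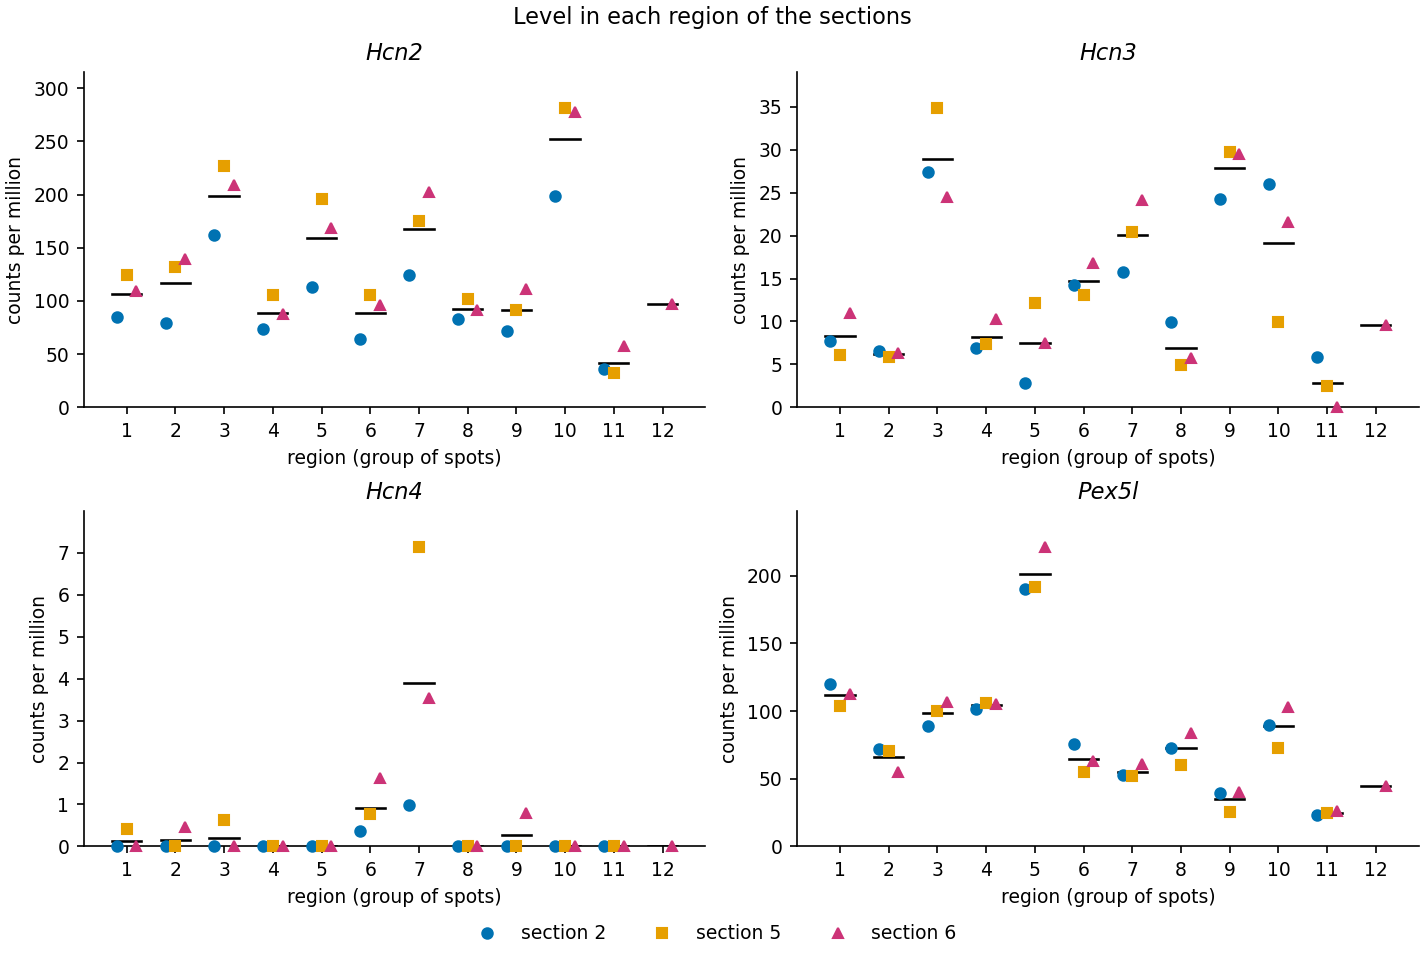
Level of each gene (CPM, linear axes, each panel with its own scale) in 12 regions, a point per section and a bar at the mean, region 7 being the thalamic region. Pex5l peaks in region 5 at 190 to 221 CPM, Hcn2 in region 10 at 199 to 281 CPM, and the Hcn4 panel rests on 24 counts in all.

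The summed oligodendrocyte markers are given beside this pattern, with no measure of how far they moved together. The 8 markers summed to 50434 to 66639 CPM in region 5, 14742 to 15697 in region 10, 11845 to 12243 in region 3 and 6269 to 6966 in the thalamic region. Region 1, next after region 5 in Pex5l, had 5596 to 6280 CPM. Region 4, which came after regions 5 and 1 in Pex5l, had the lowest sum of the 12, 1951 to 2418 CPM. In region 2, with Pex5l at a mean of 65.8 CPM, the markers summed to 8298 to 9540 CPM. Region 11, lowest in both Hcn2 and Pex5l, had 6489 to 8790 CPM. The part of oligodendrocytes in the levels of Hcn2 and Pex5l over the regions was not tested.

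**Figure D4:**
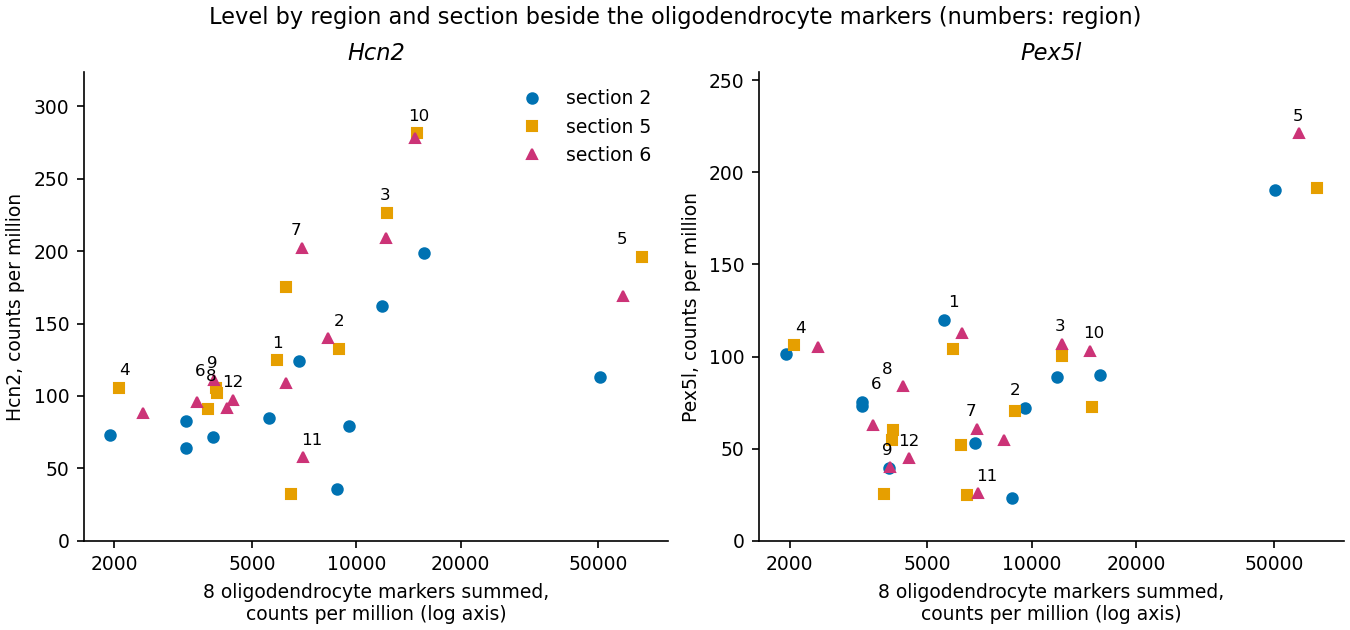
Hcn2 and Pex5l (CPM, linear axes) against the summed level of 8 oligodendrocyte markers (CPM, log axis), a point per section and region, numbered by region. Region 5 lies far to the right at 50434 to 66639 CPM and is highest in Pex5l, while region 4 lies far to the left and is still above 100 CPM.

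Across the 34 sums per section and region, each section's mean taken out, Hcn2 and Hcn3 had a Pearson correlation of 0.52, Hcn2 and Pex5l of 0.59, and Hcn3 and Pex5l of 0.04. These describe the regions, which share libraries and depth. The genes most like Hcn2 among the 13798 were Acsl3 (0.87), Paqr4, Tspan12, Hmbox1 and Map4 (0.83). Those most like Hcn3 were Hexim2, Epm2aip1, Pcdh19, Impact and Nap1l5 (0.83 for the last). Those most like Pex5l were Sept7, Kctd3 (0.88), Dync1li2, Tmem151a and Rapgef4 (0.87). Kctd3, which encodes a protein that binds HCN3 channels, and Rapgef4, a cAMP-gated exchange factor, stood on the lists of channel partners and of cAMP targets. Across the 14 sums per animal and neuron cluster, the members correlated with each other at 0.09 to 0.38. The most like genes there were F2r for Hcn2 (0.86), Mlh3 for Hcn3 (0.94), Gm42447 for Hcn4 (0.96) and Malt1 for Pex5l (0.83), over sums that share animals and depth.

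Other genes of the system differed between the thalamic region and the mean of the other regions in both directions. Of 19 tested channels that act with Ih in burst firing and rest, 10 were higher and 5 lower in the thalamic region. Their median log2 fold change was 0.45, against 0.01 over all genes, of which 16.5% were higher and 10.7% lower. This was not particular to the thalamic region. Against the mean of the others region 6 had 13 higher and 0 lower, region 4 had 12 and 1, and region 1 had 11 and 0. There 33.4%, 40.2% and 34.5% of all genes passed. Regions 5 and 11 had 1 higher each, with 10 and 14 lower (45.8% and 53.3% of all genes). In the thalamic region Cacna1g was at 145 ± 18.9 CPM against 32.6 (2.55 ± 0.10, adjusted p = 2.88e-32, edgeR). Kcnj9, for a G protein-opened potassium channel, was at 110 ± 13.4 against 57.5 and Kcnd2, for an A-type potassium channel, at 147 ± 12.2 against 80.5. Kcnj4, for an inward rectifier, was lower at 6.98 ± 1.01 against 63.1 CPM (-2.67 ± 0.21). Of 22 receptors that act through cAMP, 11 were higher and 3 lower there, with a median of 0.45. Region 6 had 13 higher and 0 lower of them and region 1 had 11 and 2, beside 33.4% and 34.5% of all genes called. In the thalamic region the serotonin receptor gene Htr7, whose receptor raises cAMP, was at 40.8 ± 11.9 against 8.11 CPM (2.83 ± 0.17, adjusted p = 3.61e-22, edgeR). Receptors that lower cAMP were also higher, Gabbr2 at 324 ± 39.1 against 132 CPM (1.44 ± 0.08) and the histamine receptor gene Hrh3 at 158 ± 6.78 against 59.9 (1.60 ± 0.09).

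Of 36 cAMP genes, 12 were higher, 6 lower and 18 not called in the thalamic region (median 0.12), beside 16.5% of all genes higher and 10.7% lower. Region 6 had 16 higher and 3 lower of them and region 1 had 12 and 6, beside 33.4% and 34.5% of all genes called. In the thalamic region Adcy8, for a calcium-stimulated adenylyl cyclase, was at 38.9 ± 5.51 against 14.9 CPM (1.62 ± 0.16). The stimulatory G protein gene Gnas was at 2682 ± 230 against 1823 (0.58 ± 0.06). Rapgef4 was lower at 106 ± 16.6 against 249 CPM (-1.07 ± 0.09), as was the phosphodiesterase gene Pde1a at 24.1 against 84.0. The 19 tested partner proteins split into 5 higher and 6 lower (median 0.01). Mrvi1, whose protein binds HCN4 channels, was at 21.5 ± 3.82 against 2.87 CPM (3.60 ± 0.32, adjusted p = 9.7e-15, edgeR). The low-count filter may have admitted Mrvi1 through the thalamic sums, so its call is no support. Grasp, which encodes the scaffold tamalin, was at 7.08 ± 0.62 against 37.4 CPM (-2.04 ± 0.22).

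Clustered again, the thalamic region gave 6 subregions found in every section and a seventh of 7 spots in 2 sections, led by the habenular genes Tac2, Gm5741 and Pou4f1. Pairs of the 6 are compared here, since the seventh, with 2 Hcn2 counts in its 5 spots of section 6, pulls on any mean of the others. Subregion 1 (203 spots) was led by Oxt, Foxp2 and Avp, subregion 2 (116) by Itga4, Col27a1 and Nexn, and subregion 3 (111) by Calca, Tnnt1 and Endou. Subregion 4 (100) was led by Ramp3, Prkcd and Adarb2, subregion 5 (73) by the red blood cell genes Alas2, Hba-a1 and Hbb-bs, and subregion 6 (42) by C1ql2, Stk32b and Rspo3. Hcn2, Hcn3 and Pex5l entered the fit of 7698 genes. Of 45 tests in 15 pairs, 7 passed, 4 for Hcn2, 3 for Pex5l and 0 for Hcn3, where 5.04% of all gene tests passed (0.701% to 11.2% per pair). An unadjusted p under 0.05 was found in 14. Against the mean of all other subregions, the seventh included, 5 of 21 tests passed, where 5.12% of all gene tests did.

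Hcn2 was low in subregion 1, at 95.4, 129.9 and 146 CPM in sections 2, 5 and 6. Subregion 2 stood at 188, 214 and 247 CPM, above it in 3 of 3 sections (-0.84 ± 0.19 for subregion 1 against 2, adjusted p = 0.000285, edgeR, with 11.2% of all genes called). Subregion 6 stood at 190.3, 206 and 343 CPM, also above it in 3 of 3 sections (-1.02 ± 0.20 for 1 against 6, adjusted p = 3.59e-05, with 10.7%). These 2 differences passed in every alternative that could be fitted, 9 for the first and 8 for the second. Subregion 5, at 96.6, 129 and 185 CPM, was below subregion 6 (-0.90 ± 0.24, adjusted p = 0.00828, with 6.94%), and without section 2 or section 6 that call was lost (adjusted p = 0.25 and 0.13). Subregion 3, at 133, 212 and 226 CPM, was just past the threshold against subregion 1 (adjusted p = 0.0475, with 4.92%), a call lost in 7 of 9 alternatives. Subregion 4 ran from 109 to 311 CPM. Its section 5 value came from 11 spots and 14 counts. No neighbours in the order of the 6 subregions differed in Hcn2 (adjusted p 0.47 to 0.97).

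Pex5l was low in subregion 1, at 38.2, 44.1 and 18.3 CPM, from 20, 19 and 9 counts. Subregion 2 stood at 76.3, 69.8 and 117 CPM, higher in 3 of 3 sections (-1.38 ± 0.31 for 1 against 2, adjusted p = 0.000286, edgeR). Without section 6 that difference was -0.86 with an adjusted p of 0.134. Subregion 3, at 82.3, 73.0 and 73.9 CPM, was also above subregion 1 in 3 of 3 sections (-1.21 ± 0.32, adjusted p = 0.00834), a call lost in 4 of 9 alternatives, among them those without section 2 or 6 (adjusted p = 0.063 and 0.20). Subregion 2 was above subregion 5 (1.21 ± 0.38, adjusted p = 0.0413, with 4.1% of all genes called), where section 5 gave 0 counts in 6 spots, and the call was lost in 8 of 9 alternatives. Subregion 6 was even over the sections at 58.5, 63.3 and 55.3 CPM. The oligodendrocyte markers summed to 3227 to 4449 CPM in subregion 1, 8607 to 10044 in subregion 2 and 8296 to 10017 in subregion 3, and their part in these Pex5l differences was not tested. In subregion 6, high in Hcn2, they summed to 4273 to 6213 CPM. Its 8 cortical neuron markers summed to 703 to 720 CPM, against 105 to 312 in subregions 1 to 5, and its thalamic markers were the lowest of the 6, at 1893 to 2057 CPM. Their part in its Hcn2 level was not tested. The 8 hypothalamic markers, which include 2 of the genes that led subregion 1, summed there to 19.1 to 1179 CPM over the sections, against 19.9 to 67.3 in subregion 2.

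**Figure D5:**
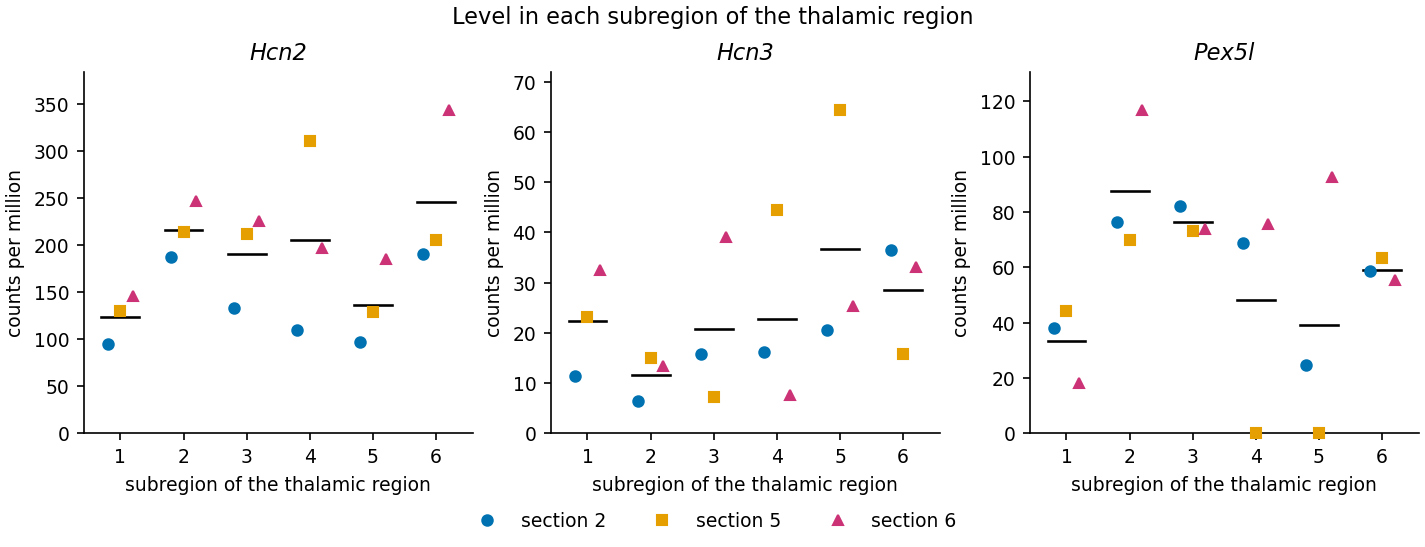
Level of Hcn2, Hcn3 and Pex5l (CPM, linear axes) in the 6 subregions found in every section, a point per section and a bar at the mean. Subregion 1 is lowest in mean for Hcn2 and Pex5l, and the Pex5l points at 0 are section 5 of subregions 4 and 5, with 11 and 6 spots.

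Hcn3 gave 1 to 16 counts per sum, and its subregions overlapped, from 11.6 ± 4.59 CPM in subregion 2 to 36.7 ± 24.0 in subregion 5. The 15 thalamic Hcn4 counts lay as 6 in subregion 1, 3 in subregion 3, 2 in subregion 4, 3 in subregion 5 and 1 in the seventh. Subregions 2 and 6 had 0, which in subregion 2 still allows up to 11.7, 18.4 and 16.6 CPM in sections 2, 5 and 6 (exact Poisson, 95%, counting error only).

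Of 26 tested cAMP genes, 2 were higher in subregion 1 than in subregion 2, 4 were lower and 20 did not pass (median log2 fold change 0.13), where 11.2% of all genes passed. Adcy1, for a calcium-stimulated adenylyl cyclase, was at 88.3 ± 23.5 CPM in subregion 1 against 293 in subregion 2 (-1.75 ± 0.19, adjusted p = 7.38e-15, edgeR), and Pde2a, a phosphodiesterase gene, at 45.9 ± 19.8 against 153 (-1.72 ± 0.24). Prkar2b was higher in subregion 1, at 89.4 ± 21.4 against 25.3 CPM (1.77 ± 0.34). Of 11 tested channels of burst firing and rest, 4 were lower in subregion 1 and 0 higher, all for potassium channels (Kcnd3, Kcnj3, Kcnk1 and Kcnn2). Between subregions 1 and 6, Cacna1g was at 161 ± 19.8 and 65.7 CPM (1.33 ± 0.28, adjusted p = 0.000113) and Adcy2 at 53.2 ± 2.26 and 151 CPM (-1.56 ± 0.27, adjusted p = 1.7e-06). Cluster 4 of the neurons and subregion 6 were both led by C1ql2. Against the mean of the other groups of its own table, the seventh subregion included, each was lower in Cacna1g and Camk2a and higher in Adcy2. The lists as a whole matched less. Of the channels, 1 was higher and 6 lower of 13 in cluster 4, against 0 and 1 of 11 in subregion 6. Of the cAMP genes, 3 were higher and 3 lower of 36, against 3 and 1 of 26. Among all genes 12% and 8.98% passed, and a likeness of the 2 groups was not tested.

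In the thalamic region Hcn2 was at 175 CPM in the anterior section (exact Poisson 150.2 to 204) against 124 and 202 in the posterior ones, and Hcn3 at 20.4 against 15.8 and 24.2. Pex5l was at 52.0 CPM (38.7 to 68.4) against 52.9 and 60.7. Hcn4 was at 7.14 CPM (7 counts) in the anterior and 0.988 and 3.54 CPM (2 and 6 counts) in the posterior sections, so the anterior one was the highest. There was 1 anterior section, so no test could be made.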

How the data were processed

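Per the labels' protocols, hand-harvested cells were barcoded at reverse transcription and pooled by plate. The authors deposited raw counts per gene and well or spot. For the cells, the aligner, the counting step and whether molecules or reads were counted are not given in the sources used here. The submitters' processing notes name Seurat, Space Ranger and the builds NCBIM37 and mm10 without their roles. The deposited well table gives the animal number (other unit) and the spot list the section (other unit) and the total count of each spot. The animal number served as the replicate, because nothing ties it to the 14 GEO samples of cells, and p-values measure the spread between these animals.

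Wells with an animal number and at least 1000 genes were kept, apart from 8 whose source named another animal. No well name occurred more than 1 time, and no doublet caller was run. Spots carry the fixed barcodes of the array, so sections share them by design. Counts scaled to 10000 were log-transformed and clustered in scanpy 1.11.5 (Python 3.11.15, 2000 variable genes, 30 components, 15 neighbours, Leiden resolution 0.5), with the members and 116 list genes in all left out. The thalamic region was the spot group with the highest score of thalamic markers. Sums of at least 5 cells or spots were tested in edgeR 4.0.16 (R 4.3.3; TMM, filterByExpr, quasi-likelihood F test) with the replicate as a block, and again in DESeq2 1.42.0. Sums of 1 replicate had a median residual correlation of 0.0487 (cells), 0.0619 (regions) and 0.0647 (subregions), against -0.0209, -0.0392 and -0.0324 otherwise. The design pairs them, since a replicate is 1 animal or section. The fit was tested on simulated data, with the dispersion set at 0.3 for cells and 0.05 for regions and subregions. In sums like those of the regions, 76% of 2-fold changes among 11045 genes were called, and 9.74% of the calls were false, above the 5% aimed at (6.06% in cells and 5.42% in subregions).

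Members, lists and markers were chosen with earlier results of these data known. The other genes named are up to 4 per list and comparison with the smallest adjusted p, the 5 most like each member (the first of them in the cells) and up to 3 that lead each group. Genome positions are RefSeq's, in GRCm38.p6. Some genes are not reported here. Alternatives are given in the closing section.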

Additional observations from a re-analysis of the deposited data

How the results depend on the processing

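The counts of 0 among neuron clusters and their pairs stayed at 0 in all 10 alternatives. For the thalamic region, 4 genes passed, Hcn4 with the limit given above. The number was 3 when a section was left out or when only regions found in every section were fitted. It was 2 when the counts were split at random and 1 part defined the regions (Pex5l then had an adjusted p of 0.0949 in edgeR). Without section 6, Hcn3 was at an adjusted p of 0.0498. In pairs of subregions 7 tests passed, 4 with DESeq2, 4 with no replicate block, 3 to 7 with a section left out and 3 with split counts, which gave fewer subregions. For subregions against the mean of the others 5 passed, 2 with DESeq2, 2 with no replicate block, 2 to 4 with a section left out, 1 with split counts and 3 with only subregions found in every section, an alternative chosen after seeing the data. Pex5l in region 3 against the mean of the others, 0.47 on the log2 scale, turned to -0.39 when all genes could define the regions and to -0.23 with split counts. 6511 and 5411 of 7827 spots (83.19% and 69.13%) kept their region in those clusterings, and the cause was not tested. The subregions were less stable, with 500 of 658 and 375 of 634 spots (75.99% and 59.15%) kept in the same 2 clusterings. Hcn3 and Hcn4 in single spots and subregions are limited by their counts.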
